A study of Mus musculus with 21 samples.

Results

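Retinoid genes were examined across mouse pancreatic islets from 3 groups of CBA males, each group with 7 samples. The 9 members, out of 55536 genes counted, were chosen by symbol and matched to Ensembl identifiers: Rbp4, the retinaldehyde dehydrogenases Aldh1a1, Aldh1a2 and Aldh1a3, the reductase Dhrs3, the retinoic acid hydroxylase Cyp26b1, and the receptors Rara, Rarb and Rarg. Mice received regular diet (RD), high-fat diet (HFD), or the same high-fat diet containing O304 at 0.8 mg per g (HFD-O304), from 10 weeks of age for 9 weeks according to the methods and 10 weeks according to the results text. O304 is an orally given pan-activator of AMPK, the kinase that responds to a falling energy state of the cell. A sample was the RNA of 150 islets pooled from 5 mice, so a sample is a pool and not an animal. The label of HFD-O304 replicate 1 lists HFD as its diet, and its title was followed.

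Islet cells take up retinol (vitamin A) from the blood, where retinol-binding protein 4 carries it together with transthyretin. Retinol is oxidized to retinaldehyde, a step that Dhrs3 runs in reverse, and retinaldehyde dehydrogenases of the Aldh1a family then make retinoic acid, which Cyp26 enzymes break down. Retinoic acid binds the receptors RAR alpha, beta and gamma, which sit on DNA with RXR partners and turn target genes on. In islets, Aldh1a3 is best known as a gene that is raised in metabolically stressed beta cells.

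A promoter of Rarb holds the textbook element through which retinoic acid receptors act, and it is shown because Rarb is both a receptor and a classical target gene. RAR and RXR pairs bind direct repeats of a 6-base half-site, and the forms searched here, on both strands, were AGGTCA and its variant AGTTCA, together with the forms GGGTCA and also GGTTCA, as a pair with 1, 2 or 5 bases between them. Windows of 300 bases around transcription starts (RefSeq, GRCm38.p6) matched 8 of the 9 members, all but Aldh1a3. A repeat with 5 bases between its half-sites was found in the Rarb window, starting 53 bases before the start, and in 0.0974% of all 32851 windows. No member's window held a repeat with 1 or 2 bases between half-sites, which were present in 0.222% and 0.268% of windows, and a single half-site was present in 43.7%. That RefSeq start is internal to Rarb, 243.68 kb downstream of the first base of the Ensembl gene, and 5 of the 7 Ensembl transcripts start within 500 bases of it. In 2 of the 7 Ensembl transcripts the repeat lies inside an exon. The 30 bases around the repeat, at chr14:16575507-16575536 on the minus strand, are given here with both half-sites in capitals.
Rarb: cgggaagGGTTCAccgaaAGTTCActcgca

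The authors' counts are STAR read pairs per gene, which leave out pairs with more than 1 possible position or gene. Pairs on genes ranged from 13809266 to 48922569 per sample, the lowest being HFD-O304 replicate 2, and the median was 35836600 among RD samples, 38765944 among HFD samples and 40527197 among HFD-O304 samples. Levels are given as normalized counts, meaning read pairs scaled by DESeq2's size factor of the sample. Differences were tested by edgeR's quasi-likelihood method in 1 fit of all 21 samples over 27229 genes, and a gene was called at a Benjamini-Hochberg adjusted p under 0.01. As a check of the tissue, 8 beta cell markers summed to between 9300726 and 13679725 normalized counts in every sample, and acinar markers were present at sums from 434 to 246687 with 0 of 9 genes called in any comparison. Alpha cell markers were lower in HFD than in RD islets for 4 of 4 genes and higher in HFD-O304 than in HFD islets for 4 of 4, delta cell markers for 2 of 3 and 3 of 3. Dividing cell markers went the other way, with 3 of 3 genes higher in HFD and 3 of 3 lower in HFD-O304 than in HFD islets. In these bulk samples fewer cells of a type and less RNA per cell cannot be told apart. Replicates 1 to 4 and replicates 5 to 7 carry separate series of library numbers, called library sets here, and values within each set stand beside the results.

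**Figure D1:**
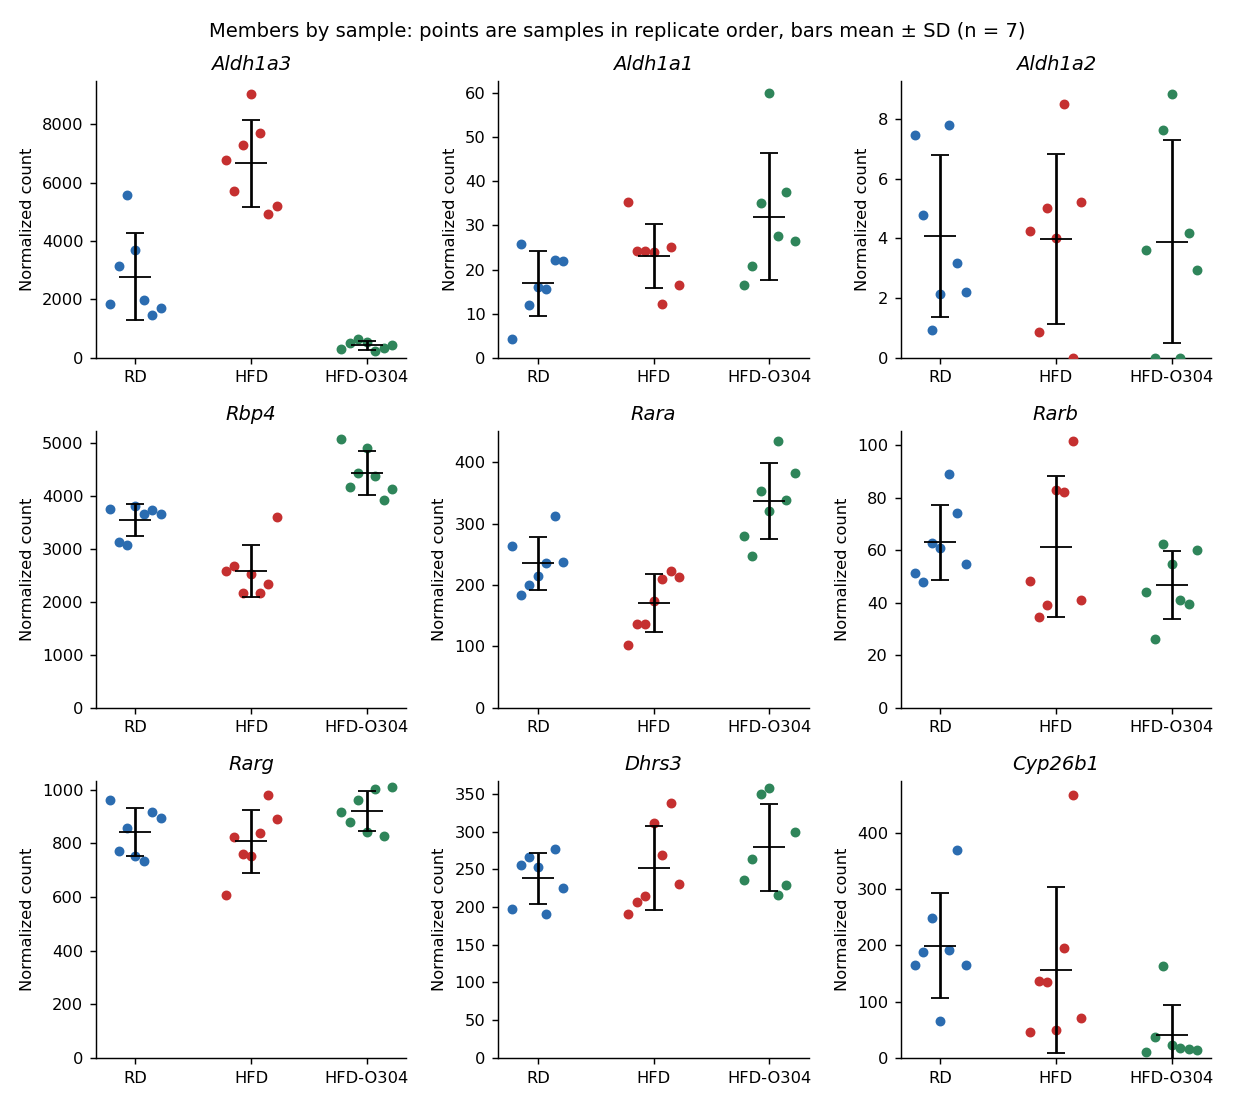
Normalized counts of the 9 members in each of the 21 samples (vertical axes, linear and starting at 0), by group on the horizontal axes, with points in replicate order and bars giving the mean ± SD of 7 samples (a bar that would pass below 0 stops there). Aldh1a3 lies between 4934 and 9044 in HFD and between 215 and 634 in HFD-O304 islets. The HFD-O304 samples lie above all others for Rbp4, and for Rara above all HFD samples but overlapping with RD.

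Per kb of annotated exon, Rbp4 was the most abundant member in RD islets, at 2640 ± 228 normalized counts per kb (SD, n = 7). Aldh1a3 followed at 601 ± 323, then Rarg at 197 ± 20.9, Dhrs3 at 81.3 ± 11.6, Rara at 53.9 ± 9.85 and Cyp26b1 at 37.3 ± 17.4, with Rarb lower than these. The other 2 dehydrogenases were close to the detection limit, Aldh1a1 at 3.41 ± 1.48 and Aldh1a2 at 1.80 ± 1.19 per kb. Rara and Cyp26b1, and Aldh1a1 and Aldh1a2, did not differ beyond their spreads in RD islets. In HFD islets Aldh1a3 reached 1444 ± 322 per kb, and its spread met that of Rbp4, at 1922 ± 367 per kb. In HFD-O304 islets Aldh1a3 fell to the fourth place in this order, at 91.6 ± 32.6 per kb, within the spreads of Dhrs3 at 95.3 ± 19.9 and Rara at 77.2 ± 14.3 per kb.

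Aldh1a3 (ENSMUSG00000015134, chr7:66390890-66427517, minus strand) had the largest differences among the members called. In HFD-O304 vs RD islets this order did not hold for Cyp26b1 in every set of samples, since Cyp26b1, described further on, was at -3.50 without HFD-O304 replicate 3 and at -3.94 within replicates 5 to 7. RD islets had 1462 normalized counts at the lowest, 1965 at the median and 5594 at the highest. In HFD islets these values were 4934, 6781 and 9044, and in HFD-O304 islets 215, 441 and 634. The highest RD sample, replicate 3, exceeded 2 of the 7 HFD samples, whereas the other 6 RD samples lay below all HFD samples, and every HFD-O304 sample lay below every sample of both other groups. The other Aldh1a genes reached at most 60.0 normalized counts in any sample.

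In HFD vs RD islets, Aldh1a3 rose from 2773 ± 1491 to 6666 ± 1487 normalized counts (SD, n = 7 each), which is 1.26 as a log2 fold change (SE 0.25, edgeR adjusted p = 0.00164). The difference was 1.01 on the log2 scale within replicates 1 to 4, where it was not called (adjusted p = 0.0258), and 1.79 within replicates 5 to 7 (adjusted p = 0.000934). The RD samples of replicates 1 to 4 included the 3 highest of the group. The difference between the 2 library sets was itself 0.79 (SE 0.38), with an adjusted p of 0.723 for the interaction by edgeR. In HFD-O304 islets the level was 423 ± 150 normalized counts, a log2 fold change of -2.72 against RD (SE 0.26, adjusted p = 2.93e-07) and of -3.98 against HFD islets (SE 0.28, adjusted p = 1.30e-10). These differences were -2.86 and -2.39 against RD, and -3.87 and -4.18 against HFD islets, within replicates 1 to 4 and 5 to 7. The 3 comparisons share samples and are not independent of each other. Within groups, Aldh1a3 deviated together with the summed beta cell markers (Pearson r = 0.65 over 21 samples, as a description), whose sums were 10087287 to 12208452 in RD, 11690024 to 13679725 in HFD and 9300726 to 11021579 in HFD-O304 islets. With the other marker lists r lay between -0.40 and 0.53. Ins1, Ins2 and Iapp, which encode the insulins and amylin, make up most of that sum, and the 8 markers did not move together. In HFD vs RD islets Iapp was higher (log2 fold change 0.41, edgeR adjusted p = 0.00384) and Slc2a2, the glucose transporter GLUT2, lower (-0.68, adjusted p = 0.000723), with 6 of 8 not called. In HFD-O304 vs HFD islets Ins1, Ins2 and Iapp were lower (-0.20, -0.23 and -0.60), whereas Slc2a2 (0.74) and Ucn3 (0.52), which encodes urocortin 3, were higher. The part of these markers in the differences of Aldh1a3 was not tested.

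**Figure D2:**
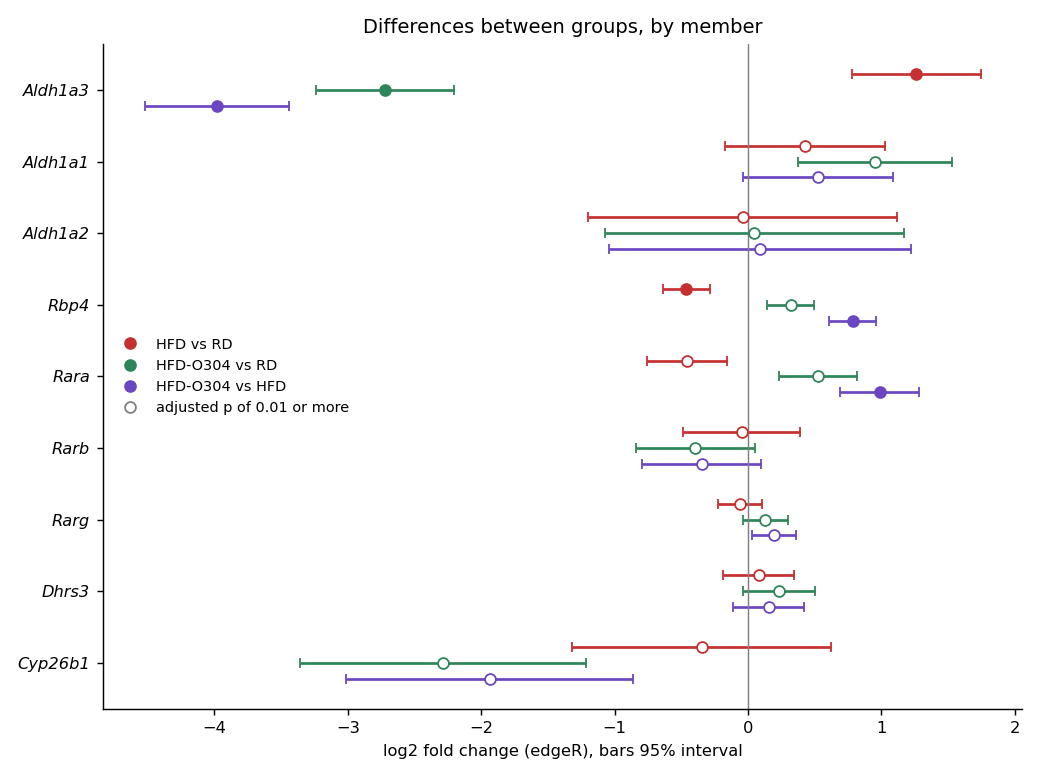
Log2 fold changes of the 9 members (horizontal axis) in the 3 comparisons from edgeR, with bars for 95% intervals and filled points for adjusted p under 0.01. Aldh1a3 lies at 1.26, -2.72 and -3.98, and the filled points beside it belong to Rbp4 and Rara.

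Counting all members, 2 of 9 were called in HFD vs RD islets (Aldh1a3 higher, Rbp4 lower), where 3.54% of all genes tested were called, 2.00% higher and 1.54% lower. For HFD-O304 vs RD islets the count was 1 of 9 (Aldh1a3 lower), beside 1.31% of all genes, 0.404% higher and 0.903% lower. Between HFD-O304 and HFD islets 3 of 9 were called (Rbp4 and Rara higher, Aldh1a3 lower), beside 11.9% of all genes, 5.08% higher and 6.79% lower. All 9 members passed the filter on low counts. Groups did not overlap for 2 members in HFD-O304 vs RD islets, where this held for 1.56% of all genes (0.694% higher, 0.870% lower). The count was 3 members in HFD-O304 vs HFD islets, where it held for 6.17% (2.56% higher, 3.61% lower). For HFD vs RD islets it was 0 members and 1.35% of all genes (0.665% higher, 0.687% lower).

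Among the dehydrogenases, Aldh1a1 (ENSMUSG00000053279, chr19:20492715-20643465, plus strand) and Aldh1a2 (ENSMUSG00000013584, chr9:71215789-71296243, plus strand) were barely detected. Aldh1a1 had 4.27 to 25.8 normalized counts in RD, 12.3 to 35.4 in HFD and 16.6 to 60.0 in HFD-O304 islets, with medians of 24.1 and 27.6 in the latter groups. Its groups overlapped, and the log2 fold changes of 0.43, 0.95 and 0.52 in HFD vs RD, HFD-O304 vs RD and HFD-O304 vs HFD islets did not pass (adjusted p = 0.479, 0.0858 and 0.235 by edgeR). Any pairs that match both Aldh1a1 and its relative Aldh1a7 equally would be left out of these counts, and their number was not measured. Aldh1a2 had 0 to 10 read pairs in every sample, and at this depth log2 differences from -1.20 to 1.12 between HFD and RD islets lay within the 95% interval.

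Rbp4 (ENSMUSG00000024990, chr19:38116629-38125281, minus strand), which encodes the retinol carrier, ran opposite to Aldh1a3. RD islets had 3079 to 3805 normalized counts (median 3666), HFD islets 2165 to 3607 (median 2527) and HFD-O304 islets 3932 to 5076 (median 4375). HFD-O304 islets lay above all others, while 1 HFD sample, replicate 7, stood among the RD islets with its 3607 normalized counts. The log2 fold change was -0.46 in HFD vs RD islets (SE 0.090, edgeR adjusted p = 0.00161), -0.47 within replicates 1 to 4 and -0.45 within replicates 5 to 7, where it was not called (adjusted p = 0.0612). Between HFD-O304 and HFD islets it was 0.78 (SE 0.090, adjusted p = 4.80e-07), and 0.89 and 0.62 within the library sets. Against RD islets the difference of 0.32 (SE 0.090, adjusted p = 0.0475) did not pass although the groups did not overlap. In replicates 1 to 4 it was 0.42, and in replicates 5 to 7 it was 0.17. Of 21 edgeR fits with 1 sample left out, 1 called it, with adjusted p from 0.00677 to 0.112. That fit left out HFD replicate 7, which is in neither group compared, and the difference stayed at 0.32. Of 11 alternative settings 1 called it.

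The alpha and delta cell markers moved with Rbp4. Summed over 4 genes, the alpha cell markers had 785586 to 1004660 normalized counts in RD, 290847 to 610282 in HFD and 820891 to 1106713 in HFD-O304 islets. Delta cell markers, summed over 3 genes, had 83427 to 134502, 44979 to 101358 and 79934 to 155130. HFD replicate 7, the highest for Rbp4 in its group, was also the highest HFD sample in both sums. Within groups, the deviations of Rbp4 had r = 0.69 with those of the alpha and r = 0.61 with those of the delta cell markers over the 21 samples. With the other marker lists r lay between -0.50 and 0.40. The part of these markers in the differences of Rbp4 was not tested.

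**Figure D3:**
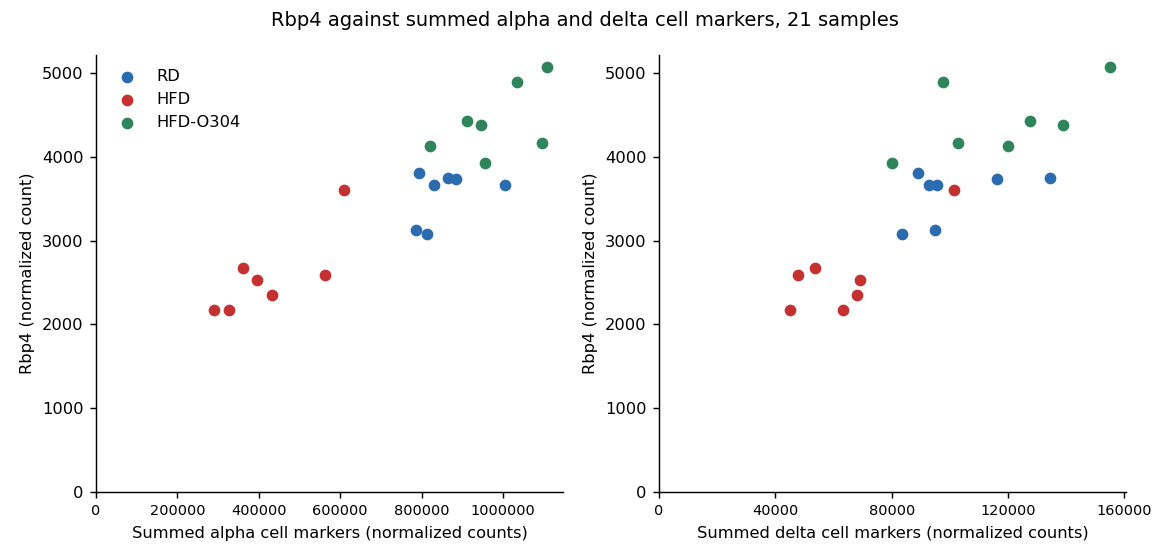
Rbp4 in normalized counts (vertical axes) against the summed normalized counts of alpha cell markers (left) and delta cell markers (right), 1 point per sample and coloured by group. HFD islets sit at the lower left, and the HFD point with 3607 normalized counts of Rbp4, replicate 7, has the highest marker sums of its group.

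Of the receptors, Rara (ENSMUSG00000037992, chr11:98927818-98974942, plus strand) was the one called. Its lowest, median and highest normalized counts were 184, 236 and 312 in RD, 101.996, 174 and 223 in HFD, and 248, 339 and 434 in HFD-O304 islets. All HFD-O304 samples were above all HFD samples, and RD islets overlapped with both. The log2 fold change in HFD-O304 vs HFD islets was 0.99 (SE 0.15, edgeR adjusted p = 2.48e-05), with 1.13 within replicates 1 to 4 and 0.84 within replicates 5 to 7. Against RD islets, HFD islets differed by -0.46 (SE 0.15, adjusted p = 0.0648) and HFD-O304 islets by 0.53 (SE 0.15, adjusted p = 0.0528). Both differences were called by edgeR with the library set as a covariate (adjusted p = 0.00628 and 0.00532). They were also called with the replicate number as a block (adjusted p = 0.00896 for each). Of 11 alternative settings only these 2 called either difference, and 0 of 21 edgeR fits with 1 sample left out did. Within groups, deviations of Rara had r = -0.71 with the summed dividing cell markers, 0.66 with the endothelial, 0.60 with the delta cell and 0.52 with the mesothelial markers. With the other lists r lay between -0.46 and 0.33. In HFD islets Rara and the dividing cell sum ran nearly along the replicate order. Rara went from 101.996 normalized counts in replicate 1 to 214 in replicate 7, and the dividing cell sum from 2611 to 431. Dividing cell markers summed to 351 to 645 normalized counts in RD, 431 to 2611 in HFD and 181 to 449 in HFD-O304 islets, and endothelial markers to 14833 to 18535, 13801 to 20406 and 12310 to 18618. Medians of the endothelial sums were 16575, 16913 and 15390, whereas those of the delta cell sums, 94926, 63398 and 119991, and of the mesothelial sums, 248, 103.4 and 778, were lowest in HFD and highest in HFD-O304 islets, as for Rara. Of the 3 mesothelial markers tested, Msln was called (2.40 in HFD-O304 vs HFD islets) and made up nearly all of the sum. Its means were 274, 141 and 744 normalized counts in RD, HFD and HFD-O304 islets. Wt1 and Lrrn4 averaged at most 1.25 in any group, and Wt1 was lowest in HFD-O304 islets (0.46), unlike Rara. The part of these marker lists in the differences of Rara was not tested.

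Rarg (ENSMUSG00000001288, chr15:102234938-102257517, minus strand), the most abundant receptor among the members per kb, had 734 to 963 normalized counts in RD, 606 to 981 in HFD and 828 to 1011 in HFD-O304 islets. Its log2 fold changes were -0.06, 0.13 and 0.19 in HFD vs RD, HFD-O304 vs RD and HFD-O304 vs HFD islets (adjusted p = 0.766, 0.522 and 0.121 by edgeR). The 95% intervals reached from -0.23 to 0.10, from -0.03 to 0.30 and from 0.03 to 0.36. For Rarb (ENSMUSG00000017491, chr14:16430839-16819156, minus strand), whose promoter element is printed above, there were 47.8 to 89.1 normalized counts in RD, 34.7 to 101.6 in HFD and 26.1 to 62.5 in HFD-O304 islets. Its differences of -0.05, -0.40 and -0.35 did not pass (adjusted p = 0.942, 0.457 and 0.344), with intervals from -0.49 to 0.39, from -0.84 to 0.05 and from -0.80 to 0.10. Within groups, deviations of Rarb had r = 0.77 with the summed endothelial markers and between -0.12 and 0.26 with the other lists. Rarb shares 1793 exon bases with Top2b, a topoisomerase gene on the opposite strand with 2784 to 3514 normalized counts, and over 820 abundant genes a median of 0.0751% of read pairs fell on the strand opposite to the gene. Top2b was not called in any comparison.

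Dhrs3 (ENSMUSG00000066026, chr4:144892827-144928209, plus strand), a retinaldehyde reductase that is itself induced by retinoic acid, overlapped across the groups. Medians were 253 normalized counts in RD islets, 231 with HFD and 264 with HFD-O304, with ranges from 190.4 to 277, from 191 to 339 and from 216 to 358. Log2 fold changes of 0.08, 0.23 and 0.15 did not pass (edgeR adjusted p = 0.821, 0.465 and 0.514), and the intervals ran from -0.19 to 0.35, from -0.03 to 0.50 and from -0.11 to 0.42. Within groups, deviations of Dhrs3 had r = 0.61 with the summed endothelial markers and between -0.20 and 0.47 with the other lists.

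Cyp26b1 (ENSMUSG00000063415, chr6:84571414-84593908, minus strand), which clears retinoic acid and is also among its textbook targets, had the widest spread of the members in HFD and HFD-O304 islets, with coefficients of variation of 94.0% and 138%. RD islets had 65.1 to 370.2 normalized counts (median 188), HFD islets 45.3 to 467 (median 135) and HFD-O304 islets 10.8 to 163 (median 16.9). In HFD-O304 islets 6 of the 7 samples had at most 36.6 normalized counts, below every RD and HFD sample, and replicate 3 alone had 163. Log2 fold changes were -2.29 against RD (SE 0.55, edgeR adjusted p = 0.0171) and -1.94 against HFD islets (SE 0.55, adjusted p = 0.0124), neither called. Without HFD-O304 replicate 3 both were, at -3.50 (adjusted p = 8.70e-05) and -3.15 (adjusted p = 4.62e-05). Within replicates 1 to 4, which include that sample, the differences were -1.47 and -0.61 (adjusted p = 0.338 and 0.606), and within replicates 5 to 7 they were -3.94 and -3.93 (adjusted p = 0.00123 and 0.000347). DESeq2's Wald test called both on all samples (adjusted p = 0.00518 and 0.00726). So did edgeR with the replicate number as a block (-2.54 and -2.02, adjusted p = 0.000535 and 0.00116). Of 11 alternative settings, 5 called the difference from RD and 4 the difference from HFD islets, and the rest did not. Of 21 edgeR fits with 1 sample left out, 2 called the former and 4 the latter. HFD and RD islets differed by -0.35 (SE 0.49, adjusted p = 0.774). HFD-O304 replicate 3 also had the highest sum of endothelial markers in its group, 18618 normalized counts against at most 16029 in the other samples. Its sums of beta cell markers (11021579) and of dividing cell markers (449) were the highest of the group as well. Within groups, deviations of Cyp26b1 had r = 0.46 with the summed endothelial markers and between -0.33 and 0.21 with the other lists. The part of these marker lists in the differences of Cyp26b1 was not tested.

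The wider retinoid pathway was followed through 61 genes, the 9 members included, of which 58 were tested. In HFD vs RD islets 4 genes were higher and 3 lower, 12.1% of those tested, beside 3.54% of all genes. HFD-O304 vs RD islets gave 1 higher and 1 lower, 3.45% beside 1.31%. HFD-O304 vs HFD islets gave 8 higher and 7 lower, 25.9% beside 11.9%. Median log2 fold changes over the list were -0.10, -0.0044 and 0.13 in these comparisons, and over all genes -0.0044, 0.0078 and 0.027. In HFD vs RD islets 1 sample could move the count of 7, which was 4 without RD replicate 1, RD replicate 7 or HFD replicate 4 and 11 without HFD replicate 7. The count over all genes moved as well, from 963 to 589 without RD replicate 7, 599 without HFD replicate 4 and 1594 without HFD replicate 7. The list was chosen with results of these data known and was not tested as a whole.

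**Figure D4:**
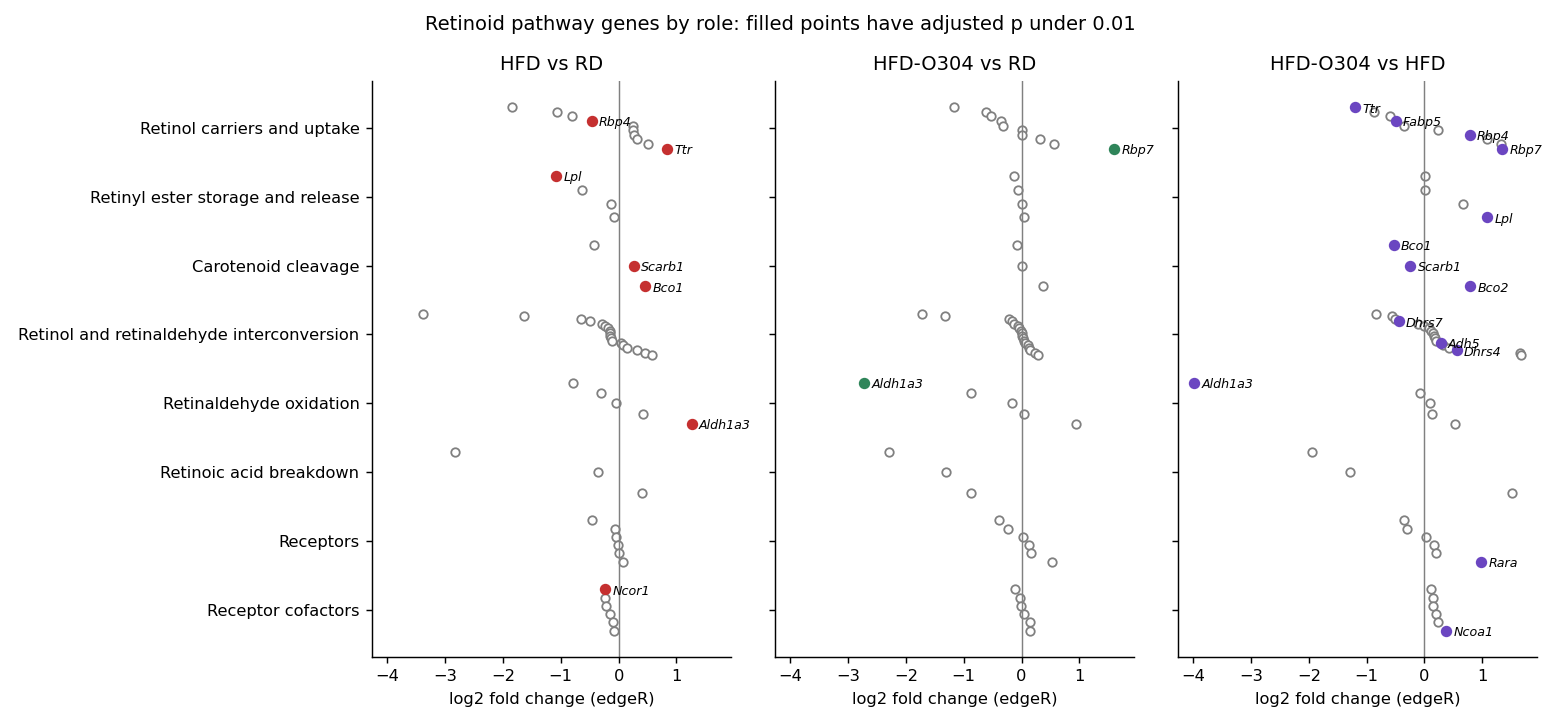
Log2 fold changes from edgeR (horizontal axes) of the tested retinoid pathway genes, grouped by role (vertical axis), in the 3 comparisons. Filled points with names passed at 0.01, and 14 of the 15 genes called in HFD-O304 vs HFD islets are drawn, since Rarres2 is listed only among target genes.

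Among 10 tested carriers, 4 were called in HFD-O304 vs HFD islets, Rbp4 among them, beside 11.9% of all genes. Rbp7, an intracellular retinol-binding protein, stood at 457 ± 64.2 normalized counts (SD, n = 7) in RD and at 545 ± 122 in HFD islets. The HFD-O304 islets, at 1384 ± 115.5, overlapped with neither group. It rose by 1.60 against RD (SE 0.11, edgeR adjusted p = 5.82e-10) and by 1.34 against HFD islets (SE 0.11, adjusted p = 3.02e-09) on the log2 scale. Ttr, which encodes transthyretin, the plasma partner of RBP4, moved like Aldh1a3 and opposite to Rbp4 between HFD and RD islets. Its log2 fold change was 0.84 in HFD vs RD (SE 0.17, adjusted p = 0.00192) and -1.20 in HFD-O304 vs HFD islets (SE 0.17, adjusted p = 7.72e-06). Fabp5, a fatty acid-binding protein that can also carry retinoic acid, was lower in HFD-O304 than in HFD islets by 0.49 (log2 fold change -0.49, adjusted p = 0.00497).

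Genes of retinoid uptake and carotenoid cleavage also passed. Lpl, the lipase that releases lipids from lipoproteins, went from 5743 ± 746 normalized counts in RD to 2722 ± 850 in HFD islets and stood at 5737 ± 478 (SD, n = 7 each) in HFD-O304 islets. Its log2 fold changes were -1.08 in HFD vs RD (edgeR adjusted p = 1.13e-05) and 1.08 in HFD-O304 vs HFD islets (adjusted p = 7.93e-07). Bco1, the enzyme that splits beta-carotene into retinaldehyde, was higher in HFD than in RD islets (0.46, adjusted p = 0.00488) and lower in HFD-O304 than in HFD islets (-0.53, adjusted p = 0.000351). Scarb1, a receptor that takes up carotenoids and lipoprotein lipid, had 0.26 (adjusted p = 0.00405) and -0.24 (adjusted p = 0.00230) in these comparisons. Bco2, which cleaves carotenoids away from their centre, was higher in HFD-O304 than in HFD islets (0.79, adjusted p = 0.000298).

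Of the 18 tested genes that interconvert retinol and retinaldehyde, 0 were called by edgeR in either comparison with RD islets, which is near the shares of all genes, 3.54% and 1.31%. In HFD-O304 vs HFD islets 3 were called, beside 11.9% of all genes. Dhrs4, a retinaldehyde reductase, was higher (0.56, adjusted p = 2.21e-06), as was Adh5, better known for clearing formaldehyde (0.28, adjusted p = 0.000578), and Dhrs7 was lower (-0.44, adjusted p = 0.000146). Among 6 cofactors, the corepressor Ncor1 was lower in HFD than in RD islets (-0.24, adjusted p = 0.00468) and the coactivator Ncoa1 higher in HFD-O304 than in HFD islets (0.38, adjusted p = 0.000150). Among 11 tested target genes of retinoic acid, which include Rarb, Dhrs3 and Cyp26b1, edgeR called 0 in both comparisons with RD islets and 1 in HFD-O304 vs HFD islets, Rarres2, which encodes chemerin (-0.69, adjusted p = 0.000758). These counts lie near the shares of all genes called, 3.54%, 1.31% and 11.9%, and are no result about the targets.

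Aldh1a3 was set beside its family of 21 aldehyde dehydrogenases, of which 19 were tested. In HFD vs RD islets 2 were higher and 5 lower, in HFD-O304 vs RD islets 0 and 3, and in HFD-O304 vs HFD islets 1 and 3 (36.8%, 15.8% and 21.1% of those tested, against 3.54%, 1.31% and 11.9% of all genes). Apart from Aldh1a3, the gene higher in HFD islets was Aldh9a1, of carnitine synthesis (0.27, edgeR adjusted p = 0.00220). Those lower were Aldh1l1, of folate metabolism (-1.93, adjusted p = 0.000556), Aldh1b1 (-0.51, adjusted p = 0.00227), Aldh4a1, of proline breakdown (-0.35, adjusted p = 0.00158), Aldh5a1, of GABA breakdown (-0.24, adjusted p = 0.00546), and Aldh6a1, of valine breakdown (-0.27, adjusted p = 0.00874). The difference of Aldh1l1 rests on few reads, with means of 42.2 normalized counts in RD and 11.6 in HFD islets. Its HFD samples had 4 to 21 read pairs. Aldh5a1 (-0.32, adjusted p = 0.000618) and Aldh6a1 (-0.37, adjusted p = 0.00121) were also lower in HFD-O304 than in RD islets. In HFD-O304 vs HFD islets, Aldh4a1 was higher (0.30, adjusted p = 0.00177), and Aldh3b1 (-0.47, adjusted p = 0.00230) and Aldh18a1, of proline synthesis (-0.52, adjusted p = 0.000119), were lower. Aldh1a3 was the family member with the largest log2 fold change in HFD-O304 islets in both comparisons, among genes called.

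Genes whose pattern was most like that of Aldh1a3 were found by Pearson correlation of log2(normalized count + 1) over the 21 samples, among 13215 genes averaging 50 normalized counts or more. The group differences set most of these values, so the correlation of deviations from group means is given after each. Highest were Aass, of lysine breakdown (r = 0.975, 0.70 within groups), Pip5k1b, a lipid kinase (0.971, 0.69), Me3, a mitochondrial malic enzyme (0.963, 0.58), Gm2115 (0.963, 0.61) and Scg2, a granule protein (0.959, 0.61). Aass averaged 1368 normalized counts in RD islets, 2868 with HFD and 465 with HFD-O304. Most opposite were Nnat, an imprinted gene (r = -0.961, -0.61 within groups), Fmo1, a monooxygenase (-0.960, -0.56), Robo1, a guidance receptor (-0.952, -0.72), Rcan3 (-0.951, -0.73) and Npy, which encodes neuropeptide Y (-0.941, -0.44). Closest to Rbp4 was Dpp10, an auxiliary subunit of potassium channels (0.954, 0.79 within groups), and closest to Rara was Rflna (0.973, 0.92).

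**Figure D5:**
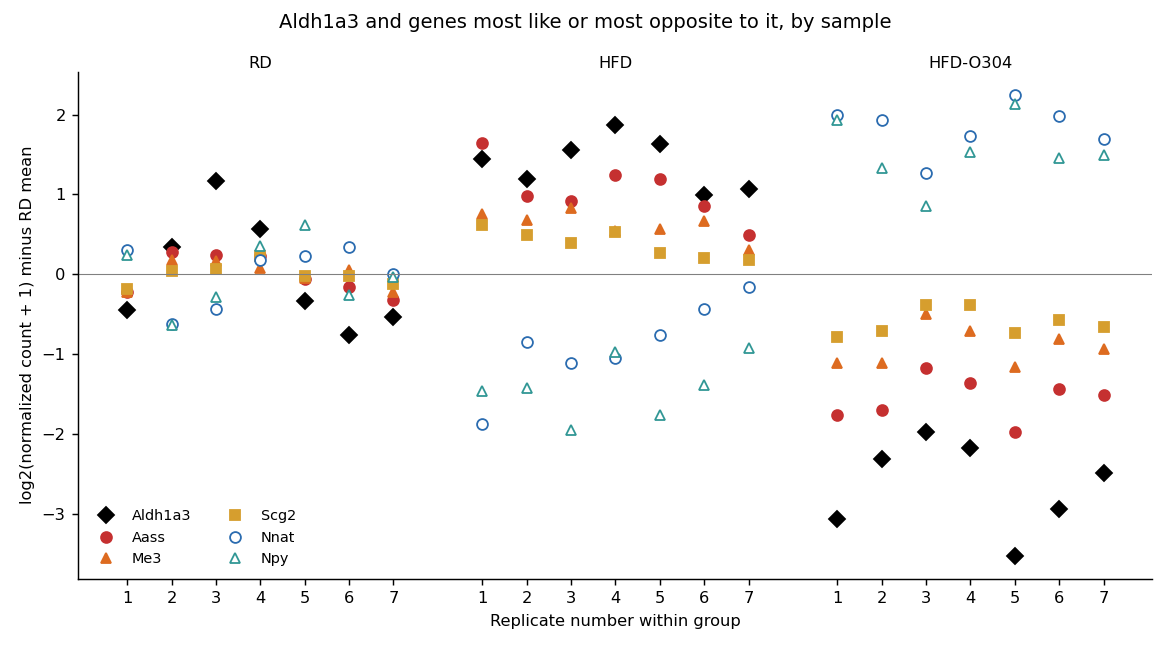
Log2(normalized count + 1) minus the RD mean (vertical axis) for Aldh1a3 and 5 of the genes most like or most opposite to it, by replicate number within group (horizontal axis). Aldh1a3, Aass, Me3 and Scg2 lie above 0 in HFD and below 0 in HFD-O304 islets, and Nnat and Npy lie on the other side of 0 in both groups.

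Of 17 genes annotated within 300 kb of Aldh1a3, 7 were tested. Lrrk1, a kinase gene 2.54 kb downstream of Aldh1a3 on the same strand, was called in HFD-O304 vs HFD islets (log2 fold change -0.51, edgeR adjusted p = 0.000615). It had 256 to 299 normalized counts in HFD and 126 to 246 in HFD-O304 islets. No other tested neighbour (Chsy1, Gm18988, Gm45080, Gm44754, Asb7 and Lins1) was called in any of the 3 comparisons. For 7 genes this is near the shares of all genes called, 3.54%, 1.31% and 11.9%, and is no result about the locus.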

How the data were processed

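RNA-seq of islets from RD, HFD and HFD-O304 mice was analysed, with 7 samples per group. The authors prepared TruSeq libraries, aligned the reads to GRCm38 with STAR (Ensembl 96 per the methods; FastQC is also named in the submitters' processing notes) and deposited raw counts of read pairs per gene for each sample. STAR reports each gene both without regard to strand and for each strand. The strand holding 28.8 to 36.3 times as many pairs as the other was used, and the unstranded column served as an alternative. All 55536 identifiers matched the annotation.

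Genes with at least 10 reads in total were kept. Groups were compared with edgeR 4.0.16 (TMM, quasi-likelihood, no covariates, all groups in 1 fit) in R 4.3.3, with Benjamini-Hochberg adjustment over all 27229 genes at 0.01. Standard errors were taken from the log2 fold change and its F statistic. DESeq2 1.42.0 gave size factors and an alternative test. Other alternatives changed the normalization, the filter, the strand, the threshold or the groups fitted together, added a replicate block or library set, or left out a sample or a library set. The test was checked on simulated counts. Replicates of a group differed beyond sampling noise in every pair (chi-square per gene 7.35 to 90.1). Each sample is a pool per the methods, which do not say that pools shared no mice. The p-values thus set group differences against the spread between these pools, and not between single mice. Precision was set by 7 samples per group and, for sparse genes, by depth.

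Members and gene lists were chosen with earlier results of these data known. Named are all members, the list genes called in any comparison, the genes most like Aldh1a3, Rbp4 and Rara, the neighbours of Aldh1a3, and markers that moved with a member. Figures were made with Python 3.11.15.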

Additional observations from a re-analysis of the deposited data

Results flagged for a closer look

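A sample far from the rest of its group was found for 3 of 27 combinations of member and group, where a gap to the nearest sample was above Dixon's 95% limit, which chance alone exceeds in about 1 of 20 groups. For Rbp4, HFD replicate 7 had 3607 normalized counts and the next HFD sample 2669. For Cyp26b1, HFD replicate 6 had 467 normalized counts and the next HFD sample 195. Also for Cyp26b1, HFD-O304 replicate 3 had 163 normalized counts and the next sample of that group 36.6. No difference between the library sets passed for any member, with 0 genes called by the interaction in edgeR and 1862, 1516 and 1314 genes at an unadjusted p under 0.05 in HFD vs RD, HFD-O304 vs RD and HFD-O304 vs HFD islets.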

How the results depend on the processing

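Aldh1a3, Rbp4 and Rara kept their direction and stayed called in HFD-O304 vs HFD islets under all alternatives, and the number of members called there was 3 to 4. Aldh1a3 ranged from 1.01 to 1.79 in HFD vs RD, from -2.86 to -2.39 in HFD-O304 vs RD and from -4.18 to -3.87 in HFD-O304 vs HFD islets. In HFD vs RD islets, 1 member was called within replicates 1 to 4 and 1 within replicates 5 to 7, against 2 on all samples. In HFD-O304 vs RD islets, against 1, there were 2 by DESeq2, without a filter, with a library set covariate and within replicates 5 to 7, 3 with only the 2 groups compared, 3 at an adjusted p under 0.05, and 1 to 2 with each sample left out (2 without HFD replicate 6, HFD replicate 7 or HFD-O304 replicate 3). The added members were Cyp26b1, Rara and Rbp4, and the cause was not tested.

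For the retinoid list in HFD vs RD islets, the 7 genes called became 12 by DESeq2, 4 with only the 2 groups, 12 with the library set as a covariate, 4 within replicates 1 to 4, 2 within replicates 5 to 7, 14 at 0.05, and 4 to 11 with each sample left out. In HFD-O304 vs RD islets the 2 genes became 4 by DESeq2, with only the 2 groups and within replicates 5 to 7, and 5 at 0.05. The 7 aldehyde dehydrogenases called in HFD vs RD islets became 1 within either library set, and the 4 in HFD-O304 vs HFD islets became 2 and 1. Fits within a library set hold fewer samples.

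Over all genes, the 963 called in HFD vs RD islets became 1758 by DESeq2, 627 with only the 2 groups, 1611 with the library set, 563 and 307 within the sets, 2148 at 0.05 and 589 to 1594 with each sample left out. The 356 in HFD-O304 vs RD islets became 727, 543 with the library set, 85 and 228 within the sets, 785 at 0.05 and 221 to 423 with each sample left out. The 3230 in HFD-O304 vs HFD islets became 2001 and 1456 within the sets and 5150 at 0.05.

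Replicate numbers 1 to 7 recur in each group, and the labels do not say whether a number marks a pairing. Correlations of deviations from group means between samples of the same number ran from -0.54 to 0.69 over 21 pairs. The means by comparison were 0.14 to 0.29, with 15 pairs over 0.1, and 7 of 21 samples best matched their own number. Whether the numbers pair the samples is thus undecided. With the replicate block, 3 members were called in HFD-O304 vs RD islets (Aldh1a3, Rara and Cyp26b1, the latter at -2.54, adjusted p = 0.000535), Cyp26b1 was also called in HFD-O304 vs HFD islets (-2.02, adjusted p = 0.00116), and Rara in HFD vs RD islets (-0.48, adjusted p = 0.00896). There were 4 genes of the retinoid list called in HFD-O304 vs RD islets, and 1577 and 543 genes over all in HFD vs RD and HFD-O304 vs RD islets.

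Signs turned only for differences that were not called. Within replicates 5 to 7 these were Aldh1a1 (-0.15), Aldh1a2 (0.049), Rarb (0.015) and Rarg (0.089) in HFD vs RD, Aldh1a2 (-0.85) in HFD-O304 vs RD, and Aldh1a2 (-0.89) and Dhrs3 (-0.16) in HFD-O304 vs HFD islets. Within replicates 1 to 4 it was Dhrs3 in HFD vs RD islets (-0.074), and with unstranded counts Rarb there (0.011). With samples left out, Aldh1a2 ranged from -0.35 to 0.21, from -0.23 to 0.30 and from -0.19 to 0.39 in the 3 comparisons, and in HFD vs RD islets Rarb from -0.21 to 0.064, Rarg from -0.11 to 0.0040 and Dhrs3 from -0.0053 to 0.14. Depth limited Aldh1a2 and Aldh1a1, with at most 10 and 68 read pairs per sample.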
